A study of Caenorhabditis elegans with 6 samples.

Results

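The let-7 family of Caenorhabditis elegans was followed here as 7 mature microRNAs, cel-let-7-5p, cel-miR-48-5p, cel-miR-84-5p, cel-miR-241-5p, cel-miR-793, cel-miR-794-5p and cel-miR-795-5p; the species prefix is dropped below. They were chosen by name as the members of the family, not by their measured values, and they make up 7 of the 154 worm probes that were named on the arrays. All 7 had a probe, and each probe was printed as 4 spots on each array. RNA came from whole worms that flew on the Shenzhou-8 mission or stayed on the ground, 1 one-colour Hy3 array for each combination of 2 strains and 3 exposures, 6 arrays in all.

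One strain was N2, the wild-type laboratory strain of C. elegans. The labels of the other conflict: it is named LS292, a name otherwise known for a dys-1 (dystrophin) strain, while its strain and genotype entries give MT4930 and ced-1(n1995) I, ced-1 encoding a receptor that lets cells engulf dying neighbours. It is called the mutant below. The static samples flew in microgravity, with gravity peaks up to 0.01 g and a radiation dose of 1.92 mGy. The centrifuge samples flew in a rotor that gave 1 g, with a dose of 2.27 mGy. The ground samples were run 2 days later under the same schedule without flight. All worms were loaded as dauers, the arrested larval form that C. elegans enters under crowding and starvation, about 100000 pooled animals in a container, and were kept at 23 °C for 16.5 days and collected 7 h after landing; 1 µg of RNA was labelled. The stage of the animals at collection is not stated in the labels, and no label reports separate cultures within a strain and exposure. Each value is therefore that of 1 pool. The p-values rest on the spread left between these 6 arrays once strain and exposure are fitted. That spread may be technical and may also hold exposure differences that are unequal in the strains.

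The let-7 family belongs to the heterochronic pathway, which sets the order of larval cell fates in the worm. miR-48, miR-84 and miR-241 act together in early larvae, where they repress the transcription factor gene hbl-1 and let skin cells leave second-stage fates. let-7 acts at the passage from the last larval stage to the adult, where it represses lin-41. Worms that recover from dauer use the same pathway again. miR-793, miR-794 and miR-795 carry the family's shared 5′ end but have been studied far less, and no role is stated for them here. In the RefSeq gene table of WBcel235, in which all 7 genes matched, mir-48 and mir-241 lay side by side with 0 other genes between them, and so did mir-794 and mir-795. Closely related probes can share signal from one another's microRNA, so members of one family are not independent readings.

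Intensities are in arbitrary units after subtraction of the local background, as the median of the 4 spots; "unscaled" values are these, and "scaled" values have been brought to a common level through 8 worm probes that reached 50 units on every array. Those 8 probes include miR-84-5p and let-7-5p. A probe counted as above control signal when its unscaled value exceeded the 95th percentile of the control spots of its array. Levels are compared between arrays for one probe, not between probes.

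let-7-5p was above control signal on all 6 arrays. Its unscaled values in the mutant were 322 static, 1532 centrifuge and 1042 ground, and in N2 they were 343, 479 and 367 in the same order. After scaling they were 480, 504 and 966 in the mutant, and 870, 1319 and 805 in N2. The scaled values of the strains overlapped, with the mutant ground array above 2 of the 3 N2 arrays. Among the worm probes let-7-5p ranked 2, 1 and 1 by intensity on the N2 arrays, and 17, 13 and 6 on the mutant arrays, a rank that also depends on each probe's own brightness.

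Among the early-larval members, miR-48-5p divided the strains without overlap, as did miR-84-5p and miR-241-5p. On the scaled values, 31.7% of the 126 probes tested below had all 3 mutant arrays above all 3 N2 arrays. In the mutant its unscaled values were 1353.5 static, 5361 centrifuge and 1351.5 ground. In N2 they were -10.5, 6.5 and -8, all under control signal. The highest N2 spot read 11 units and the lowest mutant spot 623. miR-48-5p ranked 5, 3 and 4 among the worm probes on the mutant arrays. Being above control signal on all 3 mutant arrays was shared by 18.2% of the 154 worm probes, and in the family by let-7-5p, miR-48-5p and miR-84-5p.

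miR-84-5p was above control signal on all 6 arrays and was higher in the mutant within each exposure. Its unscaled values were 460, 3966.5 and 1470.5 in the mutant, against 94.5, 76.5 and 190.5 in N2, again in the order static, centrifuge, ground. The scaled values were 686, 1306 and 1363 in the mutant and 240, 211 and 418 in N2. The lowest mutant array stood above the highest N2 array on both scales. In the static pair, however, the unscaled miR-84-5p fold of 4.87 was below the 5.20-fold difference of the Hy3 dye spots printed on the arrays. In the centrifuge and ground pairs the miR-84-5p folds were 51.8 and 7.72, beside 4.51 and 4.25 for the dye spots.

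miR-241-5p, the neighbour of miR-48 in the genome, was a dimmer probe. It read 98, 854 and 95.5 in the mutant and -231.5, 4 and -12 in N2, unscaled. It was above control signal on both mutant flight arrays but under it on the mutant ground array and in N2. The 4 N2 static spots read -45, 0, -1717 and -418, and the 2 lowest lay on local backgrounds of 1930 and 568 units, in sectors 3 and 4 of the 4 printed copies of the probe set.

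Of the less studied members, miR-793 had the same pattern as miR-241-5p. Its unscaled values were 161.5, 620 and 68.5 in the mutant and -2, -20.5 and 0 in N2, above control signal on the mutant flight arrays alone. Being above control signal on both mutant flight arrays and not on the mutant ground array was shared by 14.9% of all 154 worm probes, 23 in number, so the 2 members were not a rare case. The control limit was also higher on the mutant ground array, 150 units against 97 static and 75.25 centrifuge.

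miR-794-5p was above control signal on none of the 6 arrays, with unscaled values from -22.5 to 59. miR-795-5p read 48.5, 243 and 157.5 in the mutant and 85.5, 10 and 34 in N2. It passed the control limit on the mutant centrifuge and ground arrays and on the N2 static and ground arrays, and the strains overlapped.

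**Figure D1:**
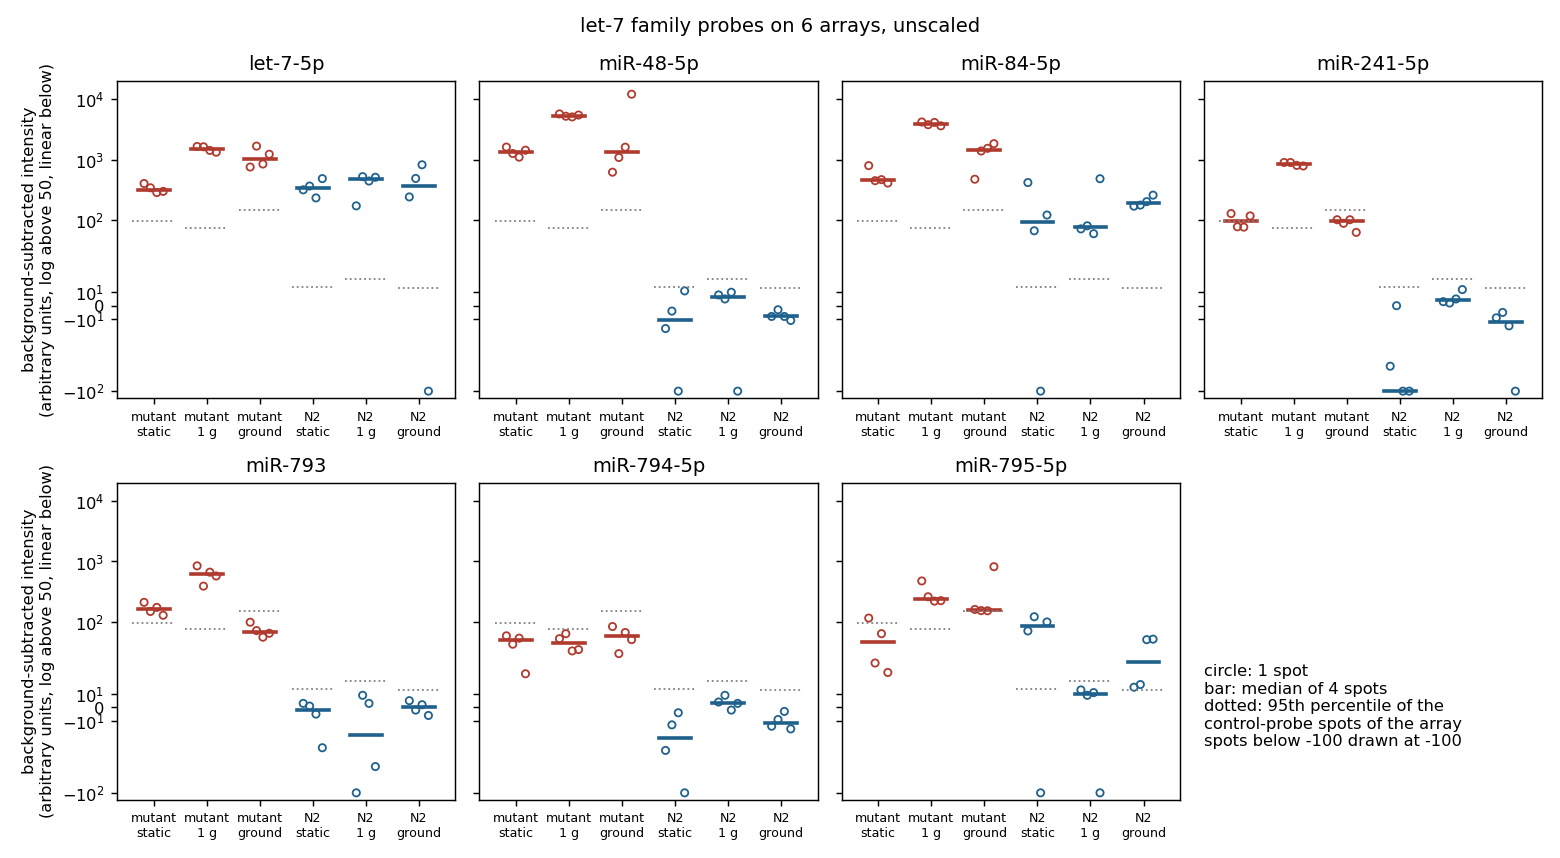
Background-subtracted intensity of the 7 let-7 family probes on 6 arrays, unscaled, in arbitrary units on an axis that is logarithmic above 50 and linear below; circles are single spots, bars the median of 4 spots, and dotted lines the 95th percentile of the control spots of each array. miR-48-5p lies between 1351.5 and 5361 on the mutant arrays and between -10.5 and 6.5 on the N2 arrays, while let-7-5p is above the dotted line on all 6.

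In all, 5, 6 and 4 of the 7 members were above control signal in the mutant under static flight, centrifuge and ground, and 3, 2 and 3 in N2. The N2 arrays carried fewer worm probes above control signal in general, 27, 31 and 30 of 154 against 52, 90 and 36 on the mutant arrays. Spots of the Hy3 dye printed on the array were 5.20, 4.51 and 4.25 times as bright on the mutant as on the N2 arrays of the static, centrifuge and ground pairs. The median control spot also read higher in the mutant, 53, 38 and 64 units against -1, 5 and -8 in N2, so a dim probe near 50 units in the mutant, such as miR-794-5p, lay at control level. The 2 strains were deposited in separate raw tables, and strain and table cannot be told apart; nor can, in RNA from whole worms, fewer expressing cells and less RNA per cell.

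The strains were compared over the 3 exposures with limma, in an additive model with strain and exposure as terms. Of the 126 probes tested, 19.0% were higher in the mutant (24 probes) and 0.794% lower (1 probe) at a Benjamini-Hochberg adjusted p under 0.05. All 7 members were tested, but 4 of them (miR-48-5p, miR-241-5p, miR-793 and miR-794-5p) passed the brightness filter through mutant arrays alone, so the filter itself favoured a difference in that direction. The balance of calls depended on the processing, with 13 higher and 16 lower after scaling to the 75th percentile, 8 and 86 with normexp background correction, 0 and 0 with scaling by the Hy3 spots, and 0 to 10 higher with 1 exposure left out. The median difference over all 126 probes was 0.56 on the log2 scale, mutant above N2. Of the 7 members, 2 were higher in the mutant and 0 lower. On the scaled values, 31.7% of the 126 probes had all 3 mutant arrays above all 3 N2 arrays, as did 4 of the 7 members (miR-48-5p, miR-84-5p, miR-241-5p and miR-793).

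On the main scaling, miR-48-5p was at least 32.9-fold higher in the mutant, in 3 of 3 exposures, with a limma adjusted p of 0.00168 (fitted log2 difference 5.04, SE 0.36). The bound holds for that scaling only. Every N2 value was set to the floor of 50 units, so the N2 side holds no measured spread, and the filter favoured this direction. miR-84-5p differed by 1.95 log2 units (SE 0.39), higher in 3 of 3 exposures, with a limma adjusted p of 0.0217. That call rests on the scaling: with values set to each array's 75th percentile the miR-84-5p difference was -0.88, and leaving out both arrays of any 1 exposure gave limma adjusted p-values between 0.113 and 0.166. The miR-48-5p call was lost without the pair of static arrays (log2 difference 4.89, limma adjusted p 0.0669). It was also lost with scaling by the Hy3 spots, where the log2 difference was smaller than in the main fit.

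miR-241-5p and miR-793 did not pass in the main fit. With N2 set to the floor, miR-241-5p had a scaled fold of 3.08, higher in the mutant in 3 of 3 exposures (limma adjusted p 0.0604). For miR-793 the fold was 2.92, also in 3 of 3 exposures (limma adjusted p 0.0914). On the mutant ground array both lay under the control limit of 150, at 95.5 and 68.5 unscaled, so neither fold is a firm lower bound. In both, the N2 arrays were all at the floor, so neither N2 level was measured and the direction was favoured by the filter. The sizes and the calls depend on the processing: normexp background correction turned the differences to -0.65 for miR-241-5p and -0.75 for miR-793, and quantile normalization gave 0.98 and 1.03. With no family member among the scaling probes they were 1.80 (limma adjusted p 0.00234) and 1.73 (limma adjusted p 0.00363). Of 22 alternatives, 7 gave a stronger difference for miR-241-5p and 5 for miR-793.

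let-7-5p had a log2 difference of -0.66 (SE 0.45), higher in the mutant in 1 of 3 exposures, with a limma adjusted p of 0.374. Its sign turned with the scaling, to 0.14 when neither let-7-5p nor miR-84-5p was among the scaling probes and to 1.05 (limma adjusted p 0.0299) when the strains were scaled separately. Over 23 alternatives the let-7-5p difference ran from -3.49 to 1.05. In 6 of them the sign turned, and in 2 the negative difference was stronger. miR-794-5p (0.24, SE 0.35, limma adjusted p 0.615) and miR-795-5p (0.02, SE 0.60, limma adjusted p 0.981) did not pass either. In the main fit miR-48-5p and miR-84-5p thus passed the strain test, and the other members, let-7-5p among them, did not. Whether members differed from one another was not tested.

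**Figure D2:**
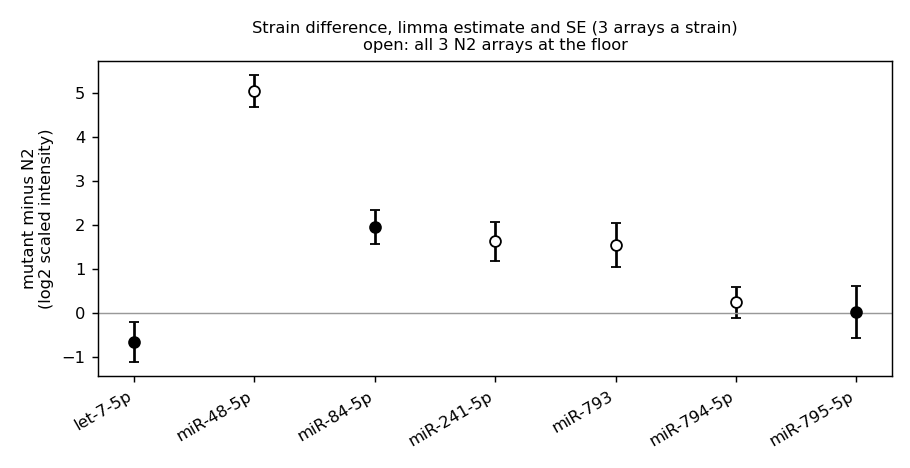
Strain difference of each let-7 family member, mutant minus N2 in log2 scaled intensity, as the limma estimate and its standard error over 3 arrays a strain; open circles mark members whose 3 N2 arrays were at the floor of 50 units. miR-48-5p stands highest at 5.04, miR-84-5p at 1.95 and let-7-5p at -0.66.

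A ratio of 2 probes on the same array does not depend on the scaling, and let-7-5p and miR-84-5p were the 2 members above control signal on every array. The log2 ratio of miR-84-5p to let-7-5p was 0.51 static, 1.37 centrifuge and 0.50 ground in the mutant. In N2 it was -1.86, -2.65 and -0.95. Each mutant ratio was above each N2 ratio; the size of a ratio on 1 array also holds the brightness of both probes, so only its change between arrays is read. The means were 0.79 ± 0.50 in the mutant and -1.82 ± 0.85 in N2 (SD, n = 3), a difference of 2.61. This ratio was chosen after its values were seen, so no test is given. Of the 28 pairs among the 8 scaling probes, 12 pairs (42.9%) separated the strains in the same way, so a ratio without overlap was frequent. Taking the mean of the spots in place of the median gave a difference of 0.11 with overlapping strains, since 1 let-7-5p spot on the N2 ground array read -1789, on a local background of 2910 units. The ratio shows an unequal difference and does not say which of the 2 microRNAs moved.

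**Figure D3:**
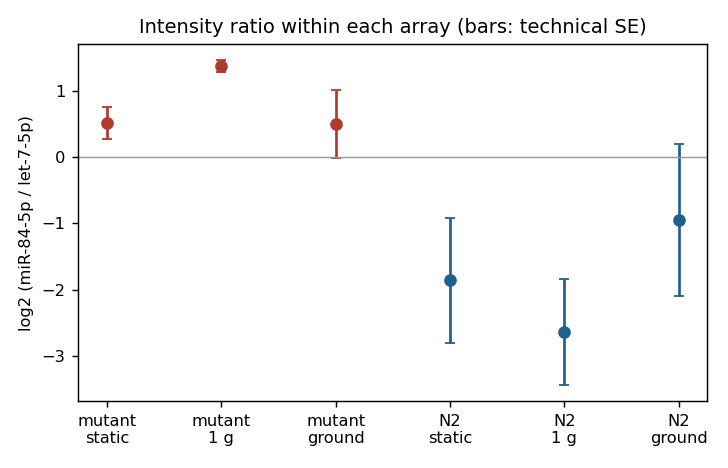
Log2 ratio of the miR-84-5p to the let-7-5p intensity on each of the 6 arrays, with technical standard errors from the 4 spots. The mutant arrays lie at 0.51, 1.37 and 0.50 and the N2 arrays at -1.86, -2.65 and -0.95.

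The question behind the exposures was whether microgravity, radiation in flight, or both changed microRNA levels. In the additive limma model over both strains, no probe passed for any pair of exposures: 0.00% of 126 probes were called higher and 0.00% lower for static against ground, for centrifuge against ground and for static against centrifuge. The counts at an unadjusted p under 0.05 were 3, 1 and 0 probes in that order, and none of these was a family member. The smallest limma adjusted p-values over all probes were 0.896, 1 and 0.821, and the model had 2 residual degrees of freedom. For probes with all 3 N2 arrays at the floor, the floor set the N2 difference between exposures to 0. The fit averaged any mutant difference with that 0 and counted the remainder as residual. This held for the 4 members that passed the brightness filter through mutant arrays alone. For miR-793, static against ground was 1.92 in the mutant, 0 in N2 and 0.96 in the fit. For such probes the lack of a call cannot decide whether exposure had an effect.

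Within the mutant, each comparison sets 1 array against 1, so there is no test; the error given is a technical standard error from the 4 spots of each array and holds no biological spread. let-7-5p was lower on both flight arrays than on the ground array, by the scaled values above. The log2 difference was -1.01 (technical SE 0.28) for static against ground, -0.94 (0.27) for centrifuge against ground and -0.07 (0.14) for static against centrifuge. The 4 static spots lay below the 4 ground spots on both the scaled and the unscaled values. For centrifuge against ground they lay apart on the scaled values alone, and without scaling the difference turned to 0.56.

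miR-48-5p could not be ordered between flight and ground in the mutant. Static minus ground was 0.69 (technical SE 0.94) and centrifuge minus ground 0.49 (0.93), with overlapping spots. Its 4 ground spots read 623, 1090, 1613 and 12112 in the 4 sectors. In the same printed block of that array miR-66-5p read 211, 315, 377 and 2606 and miR-58-3p 101, 142, 168 and 836, while the median over the block's 11 worm probes outside the family read 72, 82, 81 and 135. miR-84-5p, in the same block, read 477, 1396, 1545 and 1845. The jump in sector 4 was thus large in some probes of the block and much smaller in others. Between the flight arrays the miR-48-5p difference was 0.19 (technical SE 0.12).

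**Figure D4:**
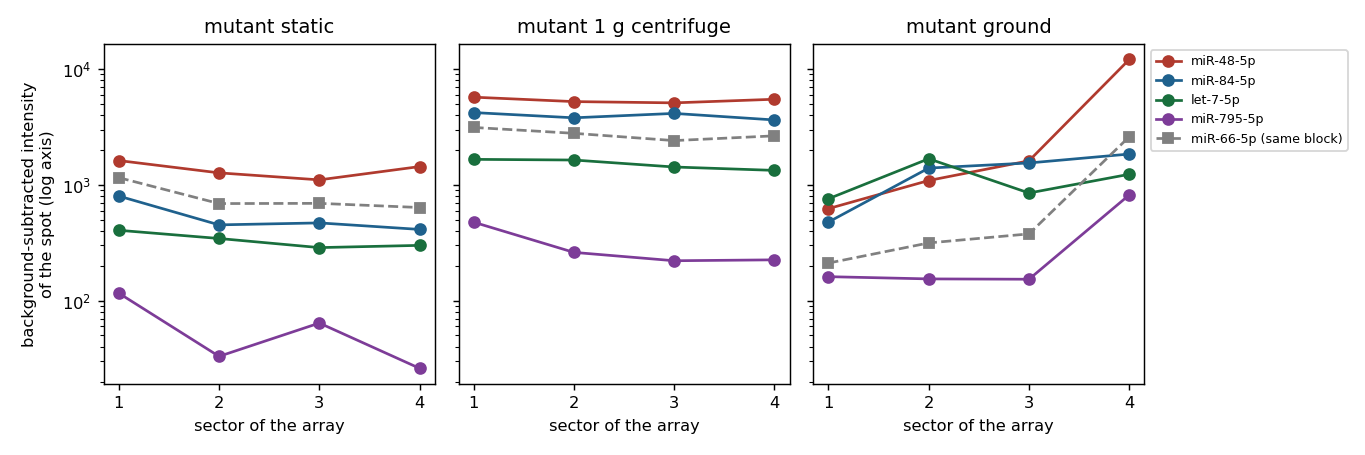
Background-subtracted intensity of single spots in the 4 sectors of the 3 mutant arrays, on a log axis, for 4 family members and for miR-66-5p, which is printed in the same block. On the ground array miR-48-5p runs from 623 to 12112 and miR-66-5p from 211 to 2606, while the spots of the centrifuge array lie close together.

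miR-84-5p was lower on the static than on the centrifuge array in the mutant, with a log2 difference of -0.93 (technical SE 0.22), with all 4 static spots below all 4 centrifuge spots on both scales. Static minus ground was -0.99 (0.49) and centrifuge minus ground -0.06 (0.44), both with overlapping scaled spots. miR-241-5p ran the same way between the flight arrays, with a difference of -0.95 (0.20), and its centrifuge value exceeded the ground value by 1.67 (0.17), spots apart on both scales, but the ground value lay under control signal, so this size is uncertain. Its static value exceeded the ground value by 0.72 (0.26) on the scaled values, but unscaled the 2 arrays read 98 and 95.5 and their spots overlapped.

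miR-793 was higher on both mutant flight arrays than on the ground array, by 1.92 (0.23) static and 1.68 (0.29) centrifuge, with spots apart on both scales. Its ground value lay under control signal, so the size of these differences is uncertain. miR-795-5p differed by -1.01 static against ground (technical SE 0.74) with overlapping scaled spots and a static value under control signal, and 1 ground spot of 819 stood apart from 3 between 153 and 161. miR-794-5p was under control signal throughout and is not ordered.

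Against ground, the members did not share one direction. For mutant static against ground, 1 of 7 members was at least 2-fold higher (miR-793) and 2 were lower (let-7-5p and miR-795-5p), where 25.9% of 135 probes were higher and 7.41% lower. For centrifuge against ground, 2 of 7 were higher (miR-241-5p and miR-793) and 0 lower, where 8.82% of 136 probes were higher and 18.4% lower. For static against centrifuge, 0 of 7 passed 2-fold either way, where 37.3% of 134 probes were higher and 0.746% lower. All 7 lay below the median of all probes in that comparison, between -0.95 and 0.59. The value of 0.59 is that of miR-794-5p, under control signal on both arrays.

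Spots that lay apart on the scaled values were common among all probes. For static against ground, 18.5% lay apart upward and 2.22% downward, and among the members miR-241-5p and miR-793 lay above and let-7-5p below. For centrifuge against ground, 5.88% lay apart upward and 49.3% downward, with miR-241-5p and miR-793 above and let-7-5p and miR-794-5p below. For static against centrifuge, 64.9% lay apart upward and 2.99% downward, with miR-794-5p above and miR-84-5p and miR-241-5p below. The miR-794-5p spots were apart only after scaling. Unscaled it read 50.5, 48 and 59, under control signal and with overlapping spots, so its place in these lists does not order it.

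The family's median difference was 0.46 for static against ground, beside 0.53 over all probes. That median is the value of miR-794-5p, which lay under control signal and read 50.5 static and 59 ground unscaled. It therefore gives no firm level for the family. The family's median was -0.06 beside -0.33 for centrifuge against ground, and -0.07 beside 0.82 for static against centrifuge. The 3 comparisons share arrays and are not independent. The scaled values of dim probes on the static array are also raised by its larger scale factor, 1.49 against 0.329 for the centrifuge array, where the floor of 50 scaled units stands at 152 unscaled units. Without scaling, over the 51 probes above control signal on both flight arrays, the median fold of static over centrifuge was 0.317, and the folds of miR-241-5p (0.115), miR-84-5p (0.116), let-7-5p (0.210), miR-48-5p (0.252) and miR-793 (0.260) were all below it.

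**Figure D5:**
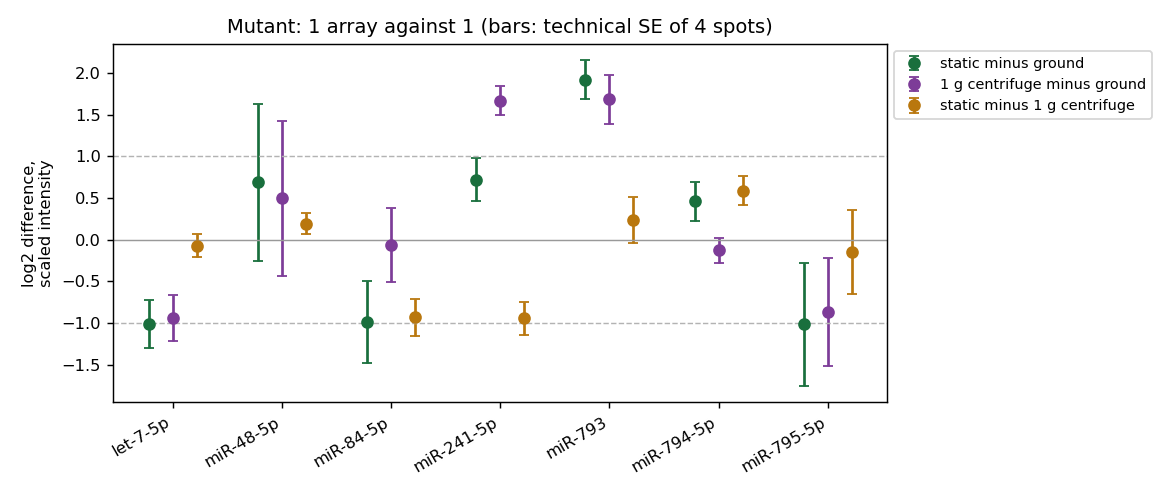
Log2 differences in scaled intensity between exposures in the mutant for the 7 members, 1 array against 1, with technical standard errors from the 4 spots; dashed lines mark 2-fold. let-7-5p lies at -1.01 and -0.94 against ground, and miR-793 at 1.92 and 1.68.

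Between the mutant flight arrays, with no replicate and no test, miR-48-5p changed less than the other early-larval members. The unscaled folds of static over centrifuge were 0.252 for miR-48-5p, 0.115 for miR-241-5p and 0.116 for miR-84-5p. How many other probe pairs shifted as much was not counted. The log2 ratio of miR-241-5p to its genomic neighbour miR-48-5p was -3.79 static and -2.65 centrifuge, and that of miR-84-5p to miR-48-5p was -1.56 and -0.43. Both ratios were higher on the centrifuge than on the static array, where miR-241-5p, at 98 units, was just above the control limit of 97. No ground ratio is given, since miR-241-5p lay under control signal there and the miR-48-5p spots were uneven.

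In N2, 3 members could be compared between exposures. let-7-5p differed by 0.11 (technical SE 1.17) between static and ground, by 0.71 (1.21) between centrifuge and ground and by -0.60 (0.44) between static and centrifuge. miR-84-5p differed by -0.80 (0.93), -0.99 (0.72) and 0.19 (1.16). The spots overlapped in all 6 cases, so neither microRNA could be ordered by exposure in N2.

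miR-795-5p was 1.54 (technical SE 0.68) log2 units higher static than ground in N2. Its scaled fold of static over centrifuge was 4.34, with the centrifuge value set to the floor. The scaled spots overlapped in both comparisons, and the mean of the 4 static spots was -2 unscaled, so 4.34 is not a firm lower bound. miR-795-5p was the 1 member past 2-fold in each of these comparisons, where 10.0% of 20 probes were at least 2-fold higher static than ground and 40.0% lower, and 4.76% of 21 were higher and 23.8% lower static than centrifuge. With the mean of the spots, the static against ground value turned to -2.09. The static against centrifuge log2 difference moved in 10 of 16 alternatives and ran from 0 to 4.24. For centrifuge against ground, 0 members passed 2-fold, where 37.5% of 24 probes were higher and 16.7% lower.

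Other heterochronic microRNAs on the array were lin-4-5p, which ends first-stage larval fates by repressing lin-14, and its relative miR-237-5p. lin-4-5p read 175.5, 650.5 and 141 in the mutant and 1.5, 7 and -8.5 in N2, in the same order. Its scaled fold was 3.88, higher in the mutant (limma adjusted p 0.0207), with N2 at the floor and the filter passed through mutant arrays alone. Its mutant ground value lay under the control limit of 150, so 3.88 is not a firm lower bound. miR-237-5p read 88, 233.5 and 84.5 in the mutant and 69, 109 and 43.5 in N2, a difference of -0.89 (SE 0.47, limma adjusted p 0.298). Of these 2, 1 was higher in the mutant and 0 lower, where 19.0% of all probes tested were higher and 0.794% lower. In the exposure comparisons 0 passed, as for all probes, which for lin-4-5p has the limit given above for probes at the floor in N2.

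Of 4 microRNAs tied to larval arrest, dauer or survival under starvation, 1 was higher in the mutant, where 19.0% of all probes tested were. miR-71-5p, which is needed for long survival of arrested larvae, was at least 48.1-fold higher on the main scaling (limma adjusted p 0.00307). Every N2 array was at the floor, and miR-71-5p passed the filter through mutant arrays alone. miR-34-5p, miR-235-3p and miR-124-3p had differences of 1.48, 0.46 and -0.56, with limma adjusted p-values of 0.0720, 0.616 and 0.445. None passed in an exposure comparison, which has the limit given above for those at the floor on every N2 array.

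Markers of other cells are given beside these strain differences. The miR-35 family, made in embryos and the germ line, had 8 measured members, of which 2, 6 and 3 were above control signal in the mutant, and 1 (miR-38-3p) on each N2 array. Their summed unscaled signal ran from 655 to 2094 in the mutant and from 39.5 to 48 in N2, on arrays of different brightness. By the limma test, miR-38-3p was higher in the mutant, by 2.04 log2 units (adjusted p 0.0311), and none of the other miR-35 family probes tested passed. The muscle microRNA miR-1-3p read 187, 474 and 140 in the mutant and 6, -49 and -9.5 in N2. Its scaled fold was 3.56 with N2 at the floor and the filter passed through mutant arrays alone (limma adjusted p 0.0251). Its mutant ground value lay under the control limit of 150, with spots from -3 to 5033, so 3.56 is not a firm lower bound. The neuronal miR-124-3p and lsy-6 did not pass, with scaled log2 differences of -0.56 and 0.29 (limma adjusted p 0.445 and 0.674). The part of developmental stage, tissue make-up and array brightness in the strain differences of miR-48-5p and miR-84-5p was not tested.

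The probes most like 2 of the members were sought over the 6 arrays among 22 bright probes, as a description without a test, since all points share arrays and scaling. For let-7-5p they were miR-56-3p (r = 0.81) and miR-55-3p (r = 0.71), both of which are scaling probes. For miR-84-5p they were miR-82-3p (r = 0.95) and miR-73-3p (r = 0.88). miR-82-3p read 1402, 4717.5 and 3822.5 unscaled in the mutant and 8, 14 and 72 in N2, so its likeness to miR-84-5p follows the gap between the strains.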

How the data were processed

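RNA from 6 pools of worms (2 strains, 3 exposures) was measured on 6 one-colour Hy3 microRNA arrays of 10080 spots and 2314 probe IDs. The authors deposited spot intensity as foreground and local background per spot, per the file headers; the sources used here do not state the scanner or the annotation build. The authors' normalized intensity and the deposited series table were used as alternatives; the columns of the series table, as labelled, hold values of other samples of the study. A further 18 value columns (the authors' ratios and per-probe medians) were not used.

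Local background was subtracted, the median of 4 spots taken, and each array scaled to the median of the 8 worm probes at 50 or more on all 6 arrays. Values under 50 were then set to 50 and put on the log2 scale. Probes at 50 or more, unscaled, on at least 2 arrays were tested (126 of 154). limma 3.58.1 in R 4.3.3 fitted strain and exposure additively, leaving 2 residual degrees of freedom, with Benjamini-Hochberg adjustment over the 126 probes; it was tested on simulated data. Within a strain, 1 array was set against 1 with no test, for probes at 50 or more on either array; 2-fold was the size used for counts. The number of arrays limits the precision, and the 4 spots give only technical error.

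The family members are named by design, and the other lists and genes were chosen with earlier results of these data known. Further probes were named by likeness over the arrays. Alternatives were scaling, background, floor, filter, sectors of the array and leaving out exposures.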

Additional observations from a re-analysis of the deposited data

Results flagged for a closer look

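In 3 members a difference between exposures had opposite signs in the strains. These contrasts hold 1 array on each side and their difference between strains was not tested. let-7-5p was lower static than ground in the mutant (-1.01) and not in N2 (0.11), a gap of -1.12 log2 units; with the 75th percentile and with quantiles the N2 value was negative too, at -0.36 and -1.03. For centrifuge against ground the gap was -1.65, from -0.94 in the mutant and 0.71 in N2; with the 75th percentile these were -0.53 and -1.02, and the gap had the opposite sign. The N2 values carry technical errors above 1 log2 unit and overlapping spots.

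miR-84-5p for static against centrifuge gave -0.93 in the mutant and 0.19 in N2, a gap of -1.12; with spot means both were negative, at -0.66 and -0.73. miR-795-5p for static against ground gave -1.01 in the mutant and 1.54 in N2, a gap of -2.55; the mutant static value lay under control signal, so the size is uncertain, and with spot means the N2 value was -2.09. For static against centrifuge it gave -0.15 in the mutant and 2.12 in N2, a gap of -2.26; the mutant static value was under control signal and the N2 centrifuge value at the floor, so this gap too has no firm size.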

How the results depend on the processing

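The number of worm probes called between strains moved with the scaling, the background correction, the floor and the filter. Against 24 higher and 1 lower, the counts were 39 and 2 with no family member among the scaling probes, 8 and 10 with quantile normalization, 13 and 16 with the 75th percentile, and 8 and 86 with normexp background. They were 47 and 2 with a floor of 20, 4 and 0 with a floor of 100, 13 and 0 with no filter, and 0 and 0 with scaling by the Hy3 spots or in the series table as labelled. Strains scaled separately gave 65 higher, subtraction of the control-probe median 11, and probes detected on all 6 arrays 1. No scaling and the mean of the spots gave 0 lower, and leaving out sector 1, 3 or 4 gave 2 lower. Leave-one-out, without both arrays of an exposure, gave 0 to 10 higher and 0 lower.

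For static against ground, 1 probe was called higher and 1 lower without family members in the scaling, with strains scaled separately and without sector 1. With sector 4 left out, or with probes detected on all 6 arrays, 1 was higher. For static against centrifuge, 1 was higher without family members in the scaling, 1 with normexp and 2 without sector 1. In 24 of 24 alternatives for each exposure comparison, 0 family members were called. For the members at the floor on every N2 array this count cannot decide whether exposure had an effect. In the main fit the floor set their N2 difference to 0.

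miR-48-5p passed between strains in 19 of 22 alternatives. The exceptions were the Hy3 scaling (4.70, limma adjusted p 0.197), leaving out the static arrays, and the series table, where the sign turned (-1.20). miR-84-5p passed in 10 of 23, and reversed to -0.88 with the 75th percentile. let-7-5p turned to 0.14 without members in the scaling, 1.05 with strains scaled separately, 1.03 without scaling, 0.83 with spot means, 0.022 with normexp and 0.067 in the series table. In 2 other alternatives its negative difference was stronger, and its lowest value was -3.49. Normexp also turned miR-241-5p (-0.65), miR-793 (-0.75), miR-794-5p (-1.94) and miR-795-5p (-1.38). The difference was stronger in 7 of 22 alternatives for miR-241-5p and in 5 of 22 for miR-793. miR-794-5p was -0.11 in the series table.

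miR-795-5p, near 0 between strains, reversed to -1.47 with quantile normalization, -2.42 with the 75th percentile, -0.48 with control subtraction, -0.19 with a floor of 100, -0.60, -0.066 and -0.065 without sectors 1, 2 and 3, and -0.21 with Hy3 scaling. Leave-one-out over the exposures gave -0.45 to 0.82. In N2, static against ground was -2.09 with spot means, and static against centrifuge ran from 0 to 4.24 over 16 alternatives.

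The family median in the mutant also followed the scaling, and for static against ground its main value was that of miR-794-5p, under control signal. For static against ground (0.46) it was -0.19 with quantiles, 0 with the 75th percentile, control subtraction or a floor of 100, -0.090 with strains scaled separately, -0.22 unscaled, -0.20 with spot means, 0.10 with normexp and -0.11 with Hy3. For centrifuge against ground (-0.06) it was 0.34 with the 75th percentile, 0.96 with strains scaled separately, 1.43 unscaled, 0.92 with the authors' values, 0.23 and 0.25 without sectors 3 and 4, and 1.44 with Hy3. For static against centrifuge (-0.07) it was -0.44 with quantiles, -0.65 with the 75th percentile, -1.65 with strains scaled separately, -2.25 unscaled, -0.95 with the authors' values, 0.26 and 0.13 without sectors 2 and 4, and -2.10 with Hy3. The ratio of miR-84-5p to let-7-5p fell from 2.61 to 1.38 with normexp and 0.11 with spot means. The causes were not tested. The settings with a sector left out and the Hy3 scaling, like the ratio, were chosen after seeing the data. Exposure, a term of the model, pairs the arrays of the strains. N2 signal near control level limits what can be said of miR-48-5p, miR-241-5p, miR-793 and miR-794-5p there.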
